A study of Mus musculus with 4 samples.

Results

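The cells described here are the arterial endothelial cells of mouse femoral bone marrow, chosen by their own RNA from 4 single-cell libraries. A cell was taken when it had 1 or more UMIs (unique molecular identifiers, each standing for 1 captured RNA molecule) of the endothelial genes Cdh5 and Pecam1 together, 1 or more UMIs in at least 2 of the 5 arterial genes Gja5, Gja4, Sema3g, Stmn2 and Bmx, no UMI of the sinusoidal gene Stab2, and under 50 UMIs of the stromal genes Col1a2 and Cxcl12 together per 10000. This gave 449 cells of 18543 kept, 208 in Graft_D40, 106 in Sham_D40, 77 in Graft_D19 and 58 in Ctrl. Those genes set the choice, so their own levels and the separation of these cells from other endothelium are descriptions.

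All mice were C57BL/6 of genotype Rag2-/-gammac-/-, a host that lacks mature T, B and natural killer cells. Graft_D40 and Graft_D19 came from femurs that had been grafted with DOHH2 cells, an established line of human follicular lymphoma, and were taken 40 and 19 days later. Sham_D40 came from PBS-injected femurs taken at day 40, and Ctrl from ungrafted mice at steady state. Endothelium entered the libraries as Cd31-positive, Sca1-positive cells sorted after depletion of Cd45 and Ter119, together with Cd51-positive, Cd200-positive stroma. Each group was 1 library, so animal, day and library cannot be told apart from the group, and no difference between groups was tested. Every interval given is a 95% interval that covers counting error only.

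Arteries and arterioles carry blood into the marrow at high pressure and shear and feed the wide, leaky sinusoids. Their endothelium depends on Sox17 and on Notch signalling through Dll4, Jag1 and Hey1, joins its cells through the connexins Gja4 and Gja5, and in marrow is a known source of stem cell factor, the product of Kitl. Sinusoidal endothelium is marked by scavenger receptors such as Stab2 and Mrc1.

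The arterial cells held 1776492 UMIs in Graft_D40, 665271 in Sham_D40, 761285 in Graft_D19 and 128288 in Ctrl. Their median depth was 7361, 5579, 6869 and 1948.5 UMIs per cell in that order. A count of 3 UMIs corresponds to 1.69 CPM (UMIs of a gene per 1000000 UMIs summed over the cells) in Graft_D40 and to 23.4 CPM in Ctrl, so genes of low level are poorly measured in Ctrl. Of cells outside the choice, 195, 114, 86 and 74 endothelial cells in the same order had only 1 of the 5 arterial genes, while 74, 33, 42 and 22 of the chosen cells had exactly 2. At the stromal limit, 15, 14, 8 and 6 chosen cells lay between 40 and 50 UMIs per 10000, and 12, 11, 3 and 6 otherwise eligible cells between 50 and 60. Between any pair of libraries 11 to 15 cell barcodes were shared, and at most 1 shared barcode belonged to a kept arterial cell.

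Arterial cells formed a larger share of the sorted endothelium in Graft_D40 than in the other libraries. They were 14.1% of 1476 endothelial cells in Graft_D40 (Clopper-Pearson interval 12.4 to 15.97), 8.39% of 1264 in Sham_D40 (6.92 to 10.1), 5.41% of 1422 in Graft_D19 (4.30 to 6.72) and 4.08% of 1423 in Ctrl (3.11 to 5.24). The intervals of Graft_D40 and Sham_D40 do not overlap each other or those of the other libraries, whereas Graft_D19 and Ctrl overlap. Detection of the 5 genes rises with depth, so each cell was also thinned to 2000 UMIs, which left out 6, 2, 1 and 32 arterial cells in Graft_D40, Sham_D40, Graft_D19 and Ctrl. The thinned shares were 12.3% in Graft_D40, 6.67% in Sham_D40, 2.86% in Graft_D19 and 2.76% in Ctrl. Against Stab2-positive cells alone, which numbered 517 in Graft_D40, 813 in Sham_D40, 999 in Graft_D19 and 1031 in Ctrl, arterial cells made up 28.7%, 11.5%, 7.16% and 5.33% of both classes together. Summed over 12 sinusoidal markers, the Stab2-positive cells stood at 7433, 15713, 10752 and 14674 CPM in that order. Stab2 detection sets that class, so a lower sinusoidal level can leave fewer cells in it. The part of this in the share was not tested. Endothelial cells here were all kept cells within the Cdh5 and Pecam1 and the stromal limits. Those neither arterial nor Stab2-positive numbered 751 in Graft_D40, 345 in Sham_D40, 346 in Graft_D19 and 334 in Ctrl. Of them 165, 50, 89 and 17 held 20 or more chondrocyte-marker UMIs per 10000, so the denominator also holds cells rich in cartilage RNA. A share of sorted cells depends on the Sca1 gate and on the other classes, and the number of arterial cells in the femur was not measured.

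**Figure D1:**
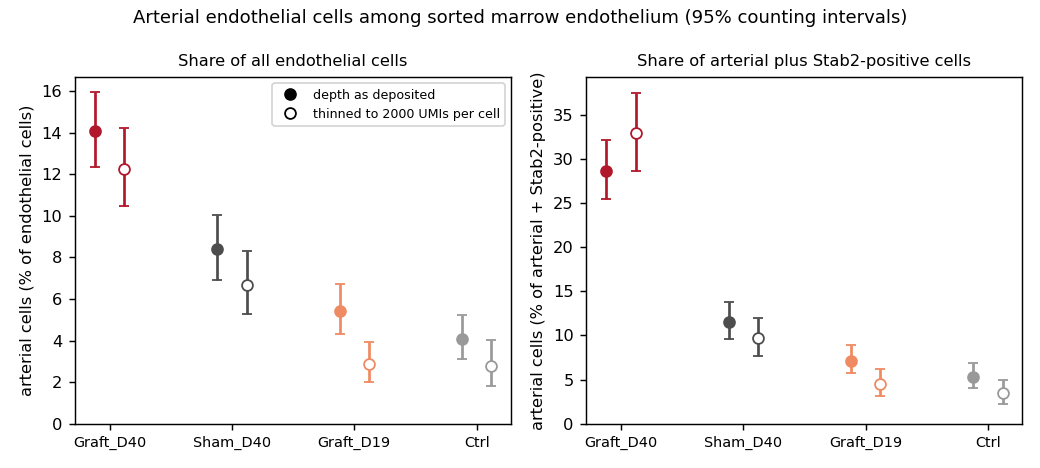
Arterial cells as a percentage of all endothelial cells (left) and of arterial plus Stab2-positive cells (right) in each library, at the deposited depth (filled) and thinned to 2000 UMIs per cell (open), with Clopper-Pearson 95% intervals. Graft_D40 stands highest in both panels, at 14.1% and 28.7% before thinning.

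The label was checked against marker genes. Sox17, the transcription factor of arterial fate, stood in arterial cells at 418 CPM in Graft_D40, 531 in Sham_D40, 311 in Graft_D19 and 1006 in Ctrl, against 42.5, 50.1, 48.8 and 67.7 CPM in Stab2-positive cells of the same libraries. Ly6a, which encodes the Sca1 antigen of the sort gate, stood at 2621, 2399, 1124 and 4085 CPM in arterial cells and at 1311, 433, 580 and 640 CPM in Stab2-positive cells in that order. Both markers that the choice did not use were thus higher in arterial cells in all 4 libraries. Of 35 measured genes of an arterial identity list that were not used in the choice, 26 were higher in arterial than in Stab2-positive cells in all 4 libraries by 1.5-fold or more, and 0 were lower. These counts between cell classes rest on the ratio alone, with no interval applied. All 10 measured sinusoidal markers were lower, among them Mrc1, the mannose receptor, at 9.01 CPM in arterial cells and 651 CPM in Stab2-positive cells of Graft_D40. Of 11 measured capillary markers, 4 were higher (Tcf15, Meox1, Meox2 and Aqp7) and 0 lower. Over all 7416 genes measured, 561 were higher and 507 lower in all 4 libraries. Beside the other Stab2-negative endothelium, 599 of 7510 genes were higher and 459 lower in arterial cells in all 4 libraries. That class carried chondrocyte-marker RNA, summed to 25828 CPM in Graft_D40, 17323 in Sham_D40, 36256 in Graft_D19 and 6996 in Ctrl. Its part in these counts was not tested. The markers above were set beside Stab2-positive cells only, so they do not tell arterial cells from other Stab2-negative endothelium.

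Ranked by the smallest ratio in any library, the first 15 genes higher in arterial cells were Ptprr, Gkn3, St8sia6, Igf2, Ssu2, Dkk2, Nebl, Pcsk5, Atp2a3, Tmem255b, Ace, Aif1l, Hey1, Cdh13 and Col8a1. Ptprr, a receptor-type tyrosine phosphatase, stood at 109 CPM in Graft_D40, 186 in Sham_D40, 78.8 in Graft_D19 and 320 in Ctrl, and at no more than 1.53 CPM in Stab2-positive cells of any library. Dkk2, a secreted modulator of Wnt signalling, stood at 93.4, 82.7, 90.6 and 39.0 CPM, and at no more than 0.658 CPM in Stab2-positive cells. Ace, the angiotensin-converting enzyme, stood at 218, 293, 134 and 483 CPM, against 6.57, 4.87, 5.23 and 4.4 CPM in Stab2-positive cells. Ptprr, Dkk2 and Ace were thus near the bottom of the scale in Stab2-positive endothelium, a class that held 5231593 to 10318618 UMIs.

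Arterial cells also carried more RNA of several niche factors than Stab2-positive cells, with 14 of 31 measured members of a niche and angiocrine list higher and 4 lower in all 4 libraries. Kitl, stem cell factor, stood at 471 CPM in Graft_D40, 691 in Sham_D40, 500 in Graft_D19 and 577 in Ctrl, against 28.5 to 41.0 CPM in Stab2-positive cells. The other 13 were Jag1, Jag2 and Dll4, which are Notch ligands, Pdgfa and Pdgfb, of which Pdgfb recruits pericytes, and Bmp6, Igfbp3, Tgfb2, Dkk2, Edn1, Cx3cl1, Dhh and Efnb2. The 4 lower genes were Icam1, Sele and Selp, which capture leukocytes, and the chemokine Cxcl9.

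**Figure D2:**
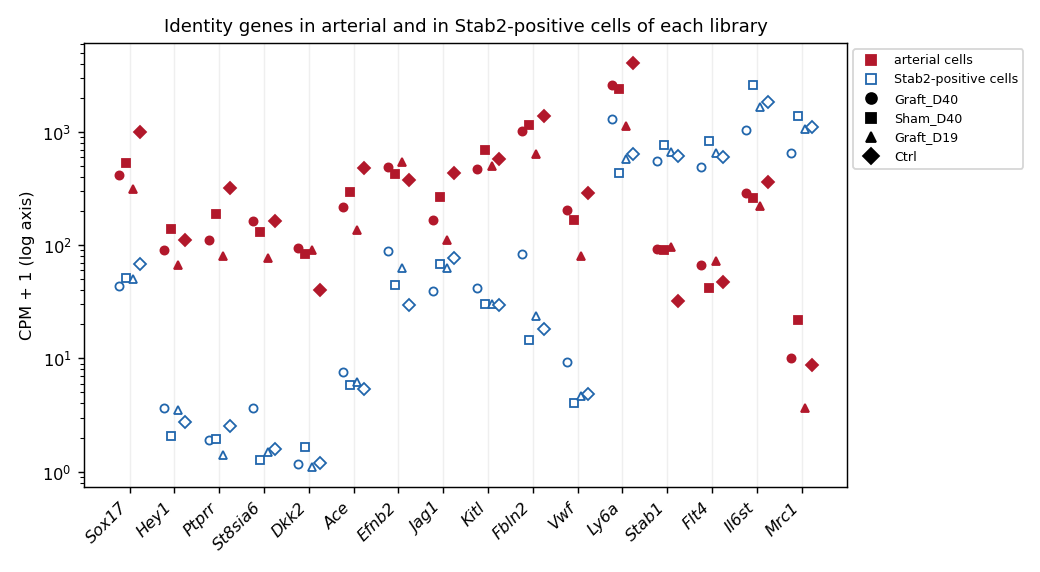
CPM plus 1 on a log axis in arterial cells (red) and Stab2-positive cells (blue, open) for 16 genes, with a marker shape per library. From Sox17 to Ly6a the arterial values lie above the Stab2-positive ones in every library, and from Stab1 to Mrc1 below them.

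The arterial cells were not uniform. Gja5 or Bmx, genes of larger arteries, were detected in 128 of 208 arterial cells in Graft_D40 (61.5%, Clopper-Pearson interval 54.6 to 68.2), 64 of 106 in Sham_D40 (60.4%, 50.4 to 69.7), 35 of 77 in Graft_D19 (45.5%, 34.1 to 57.2) and 35 of 58 in Ctrl (60.3%, 46.6 to 73.0). Thinned to 2000 UMIs the shares were 61.5%, 60.8%, 52.8% and 61.5%, and the unthinned intervals of all 4 libraries overlap. Since the split uses RNA of the same cells, what follows is a description. Of 3926 genes, 43 were higher and 38 lower in cells with Gja5 or Bmx in all 4 libraries.

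Gkn3, a gastrokine found in arterial endothelium of mice, was found mainly in cells with Gja5 or Bmx, at 104 CPM in Graft_D40, 303 in Sham_D40, 127 in Graft_D19 and 216 in Ctrl. In cells with neither gene it stood at 0, 3.80, 0 and 40.2 CPM. Elastin, Eln, stood at 312, 532, 151 and 293 CPM with Gja5 or Bmx and at 76.6, 68.4, 30.7 and 221 CPM with neither. Cytl1, Syt15, Ace, Mgp and the Notch feedback gene Nrarp leaned the same way. Cells with neither gene carried more Tbx3, Xdh, Rgcc and Nid2 and more of the lipid-handling genes Lpl and Pparg. The Ctrl counts behind this were small. UMIs there with Gja5 or Bmx and with neither were 1 and 3 for Tbx3, 2 and 3 for Nid2, and 2 and 4 for Pparg. Rgcc, a marker of capillary endothelium, stood at 346, 479, 468 and 161 CPM with neither gene and at 58.3, 122, 148 and 63.7 CPM with Gja5 or Bmx. Cells with both capillary genes Car4 and Tcf15 were few among the arterial cells, 7 in Graft_D40, 3 in Sham_D40, 0 in Graft_D19 and 1 in Ctrl. Car4, with or without Tcf15, was found in 8, 3, 0 and 1 cells. Tcf15, with or without Car4, was more common, in 80 of 208, 48 of 106, 24 of 77 and 15 of 58 arterial cells in that order.

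**Figure D3:**
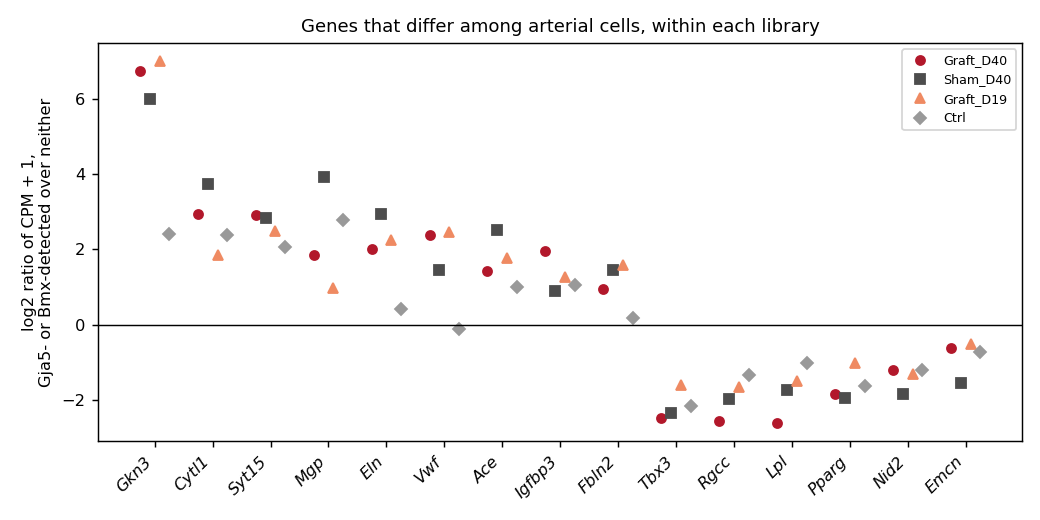
Log2 ratio of CPM plus 1 in arterial cells with Gja5 or Bmx over arterial cells with neither, per gene and library. Gkn3 to Ace lie above 0 in nearly every library (Vwf in Ctrl is at -0.11), and Tbx3 to Emcn lie below 0 in every library.

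At day 40 the arterial cells of the grafted femur carried more basement membrane and vessel-growth RNA than those of the sham femur, and less RNA of several arterial identity and Notch genes and of the fatty acid-handling genes Fabp4 and Cd36. Genes whose mean over both libraries reached 20 CPM were tabulated, and a gene was called at 1.5-fold or more with the interval off 1. Of 6761 genes, 313 were higher (4.63%) and 329 lower (4.87%) in Graft_D40 than in Sham_D40, 9.5% in either direction, and the median log2 ratio over all of them was 0.01. The ungrafted libraries differed from each other on a like scale, with 345 of 6557 genes higher (5.26%) and 441 lower (6.73%) in Sham_D40 than in Ctrl. These shares are the level against which each list below is read. Each gene was also recounted without its most loaded cells, the 5% of arterial cells in each library that held most of its UMIs. In that recount 433 genes were higher and 203 lower in Graft_D40 than in Sham_D40, so the near-even split leaned to higher genes, and 239 and 161 genes were called alike with and without those cells. The recount can remove every UMI of a sparse gene from the library that holds fewer of them. Where it does, a gene still called higher gains no support from it.

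The basement membrane is the sheet of collagen IV, laminin, nidogen and proteoglycan under the endothelium of arteries. Of 15 measured genes of 18 on its list, 9 rose and 0 fell in Graft_D40 against Sham_D40, with a list median of 0.62 on the log2 scale. Col4a1, a chain of collagen IV (chromosome 8, 11198423 to 11312826, mm10), stood at 1994 CPM in Graft_D40, 831 in Sham_D40, 3079 in Graft_D19 and 514 in Ctrl. Both grafted libraries were above both ungrafted ones, and Graft_D40 was 2.40-fold higher than Sham_D40 (2.19 to 2.63). Its partner chain Col4a2 stood at 1187, 628, 1721 and 374 CPM in the same order and was 1.89-fold higher (1.70 to 2.10).

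Col4a1 and Col4a2 lie head to head on chromosome 8 and share their promoter, which is why their start regions are shown as the sequence that both genes of this moving pair use. The windows run from 250 bases before to 50 bases after each RefSeq start on build GRCm38.p6, chr8:11312777-11313076 on the minus strand for Col4a1 and chr8:11312555-11312854 on the plus strand for Col4a2. Each is written 5′ to 3′ on its own gene's strand, and capitals mark the 78 bases, 11312777 to 11312854, that are in both windows and read as reverse complements. The annotated RNA starts, 11312826 and 11312805, overlap by 22 bases.
Col4a1: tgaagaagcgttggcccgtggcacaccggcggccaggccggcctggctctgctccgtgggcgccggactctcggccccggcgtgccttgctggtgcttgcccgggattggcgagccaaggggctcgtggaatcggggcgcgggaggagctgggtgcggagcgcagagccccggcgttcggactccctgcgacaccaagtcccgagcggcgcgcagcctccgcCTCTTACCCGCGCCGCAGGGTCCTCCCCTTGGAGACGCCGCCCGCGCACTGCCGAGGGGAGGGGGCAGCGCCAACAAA
Col4a2: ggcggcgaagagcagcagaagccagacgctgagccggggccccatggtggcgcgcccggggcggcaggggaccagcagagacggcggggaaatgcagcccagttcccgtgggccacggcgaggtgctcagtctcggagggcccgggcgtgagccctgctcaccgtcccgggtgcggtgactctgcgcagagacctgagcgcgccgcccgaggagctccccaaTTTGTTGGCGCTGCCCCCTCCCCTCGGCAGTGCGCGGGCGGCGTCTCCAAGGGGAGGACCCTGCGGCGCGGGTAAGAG

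The other 7 risers were 2 further collagens, 3 laminin chains and 2 nidogens. Col18a1, the source of endostatin, stood at 775 CPM in Graft_D40, 281 in Sham_D40, 663 in Graft_D19 and 374 in Ctrl, a 2.76-fold higher level in Graft_D40 than in Sham_D40 (2.36 to 3.23). Col15a1, a related linker collagen, stood at 207, 69.1, 368 and 31.2 CPM and was 2.99-fold higher (2.19 to 4.15). The laminin chains Lama4, Lamb1 and Lamc1 and the nidogens Nid1 and Nid2, which join laminin to collagen IV, rose by 1.54 to 1.83-fold. Hspg2, the proteoglycan perlecan, stood at 438 CPM in Graft_D40 and 295 in Sham_D40 and was not called (1.49-fold, 1.27 to 1.75). Lama5 stood at 128 and 129 CPM. Of the 9, 7 were still called without the most loaded cells, and Lamc1 and Nid2 were not. Stab2-positive cells showed the rise too, in 11 of 14 measured members with 1 lower, beside 5.91% higher and 5.62% lower over all genes there, and Col4a1 stood at 1480 CPM in Graft_D40 and 454 in Sham_D40 in those cells. Whether the classes differ in this was not tested.

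A list of tip-cell and angiogenic genes overlaps the basement membrane list in 5 of its risers. Of its 19 measured genes, 13 rose and 1 fell, with a median of 0.76. Igfbp3, which binds insulin-like growth factors, stood at 1714 CPM in Graft_D40, 807 in Sham_D40, 938 in Graft_D19 and 803 in Ctrl, so that Graft_D40 stood apart from the other 3 libraries (2.12-fold over Sham_D40, 1.94 to 2.33). Cd34, a sialomucin of the endothelial surface, stood at 620, 367, 787 and 249 CPM (1.69-fold, 1.47 to 1.95). Plvap, which forms the diaphragms of fenestrae and caveolae, stood at 770, 510, 1219 and 639 CPM (1.51-fold, 1.34 to 1.71). Cxcr4, the receptor of Cxcl12, stood at 124, 57.1, 78.8 and 62.4 CPM (2.17-fold, 1.53 to 3.15). Esm1, a secreted proteoglycan of tip cells, stood at 73.7, 21.0 and 127 CPM in Graft_D40, Sham_D40 and Graft_D19 and at 0 in Ctrl, and rested on few cells, 5% of the Graft_D40 cells holding 76.3% of its UMIs. Of the 13 risers, 10 were still called without the most loaded cells, Esm1 among them. Kdr, the main VEGF receptor, was not called (735 CPM in Graft_D40, 499 in Sham_D40, 1.47-fold, 1.30 to 1.67), and was called without those cells (1.55-fold, 1.34 to 1.80).

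Of 8 measured genes of the insulin-like growth factor axis, 5 rose and 1 fell, with a median of 0.85. Igfbp7 stood at 3888 CPM in Graft_D40, 1554 in Sham_D40, 3100 in Graft_D19 and 1380 in Ctrl, with both grafted libraries above both ungrafted ones (2.50-fold over Sham_D40, 2.34 to 2.67). Igf2, the ligand, fell to 189 CPM in Graft_D40, against 562 CPM in Sham_D40, a 2.97-fold lower level (2.56 to 3.45), and stood at 69.6 CPM in Graft_D19 and 491 CPM in Ctrl. The receptors Igf2r and Insr rose 1.82-fold (1.29 to 2.65) and 1.80-fold (1.26 to 2.64). Without the most loaded cells 4 of the 5 risers were still called, Igfbp5 being the exception, and so was Igf2.

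Among arterial identity genes more fell than rose. Of 35 measured, 9 fell (Hey1, Dll1, Jag1, Hes1, Eln, Alpl, Edn1, Crip1 and Gata2) and 2 rose (Cxcr4 and the connexin Gja1), with a median of -0.31. The recount without the most loaded cells kept the call of 7 of the 9 and of both risers, and not of Jag1 and Eln. Alpl, tissue-nonspecific alkaline phosphatase, stood at 100 CPM in Graft_D40, 340 in Sham_D40, 76.2 in Graft_D19 and 359 in Ctrl, a 3.39-fold lower level in Graft_D40 than in Sham_D40 (2.77 to 4.15). Its most loaded cells held 61.1% of its UMIs in Sham_D40, and without them the level was 1.93-fold lower (1.45 to 2.55). Alpl is also an osteolineage marker, and the markers of that lineage summed to 567 CPM in Graft_D40 and 1479 CPM in Sham_D40. Their part in the result was not tested. Edn1, the vasoconstrictor endothelin-1, stood at 157, 295, 155 and 460 CPM (1.88-fold lower, 1.55 to 2.26). For both genes the grafted libraries lay below the ungrafted ones.

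The Notch list had 0 risers and 5 fallers of 25 measured, with a median of -0.08. The fallers were the ligands Jag1 and Dll1, the target transcription factors Hes1 and Hey1 and the glycosyltransferase Lfng, which modifies the receptors. All but Lfng were also counted among the arterial identity fallers above, so the lists are not separate results. Without the most loaded cells Dll1, Hes1 and Hey1 were still called and Jag1 and Lfng were not. Against Ctrl the list had 2 lower genes, Jag1 and Hes1, and 1 higher, Bcl6b, of 27 measured in Graft_D40. Jag1 stood at 165 CPM in Graft_D40, 266 in Sham_D40, 110 in Graft_D19 and 437 in Ctrl (1.61-fold lower, 1.33 to 1.95), and Hey1 at 90.6, 137, 65.7 and 109 CPM (1.51-fold lower, 1.15 to 1.96), just past the threshold. Hey1 was not called against Ctrl (1.20-fold lower, 0.644 to 2.08). Other central members were not called. Dll4 stood at 208 CPM in Graft_D40 and 207 in Sham_D40, Notch1 at 340 and 356, Notch4 at 196 and 150, and Efnb2, an ephrin ligand of arteries, at 491 and 421 CPM. Sox17 was 1.27-fold lower (1.12 to 1.44) and was not called either. Against Ctrl it was 2.41-fold lower (1.98 to 2.91), and in Sham_D40 itself it was 1.90-fold lower than in Ctrl (1.54 to 2.32).

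**Figure D4:**
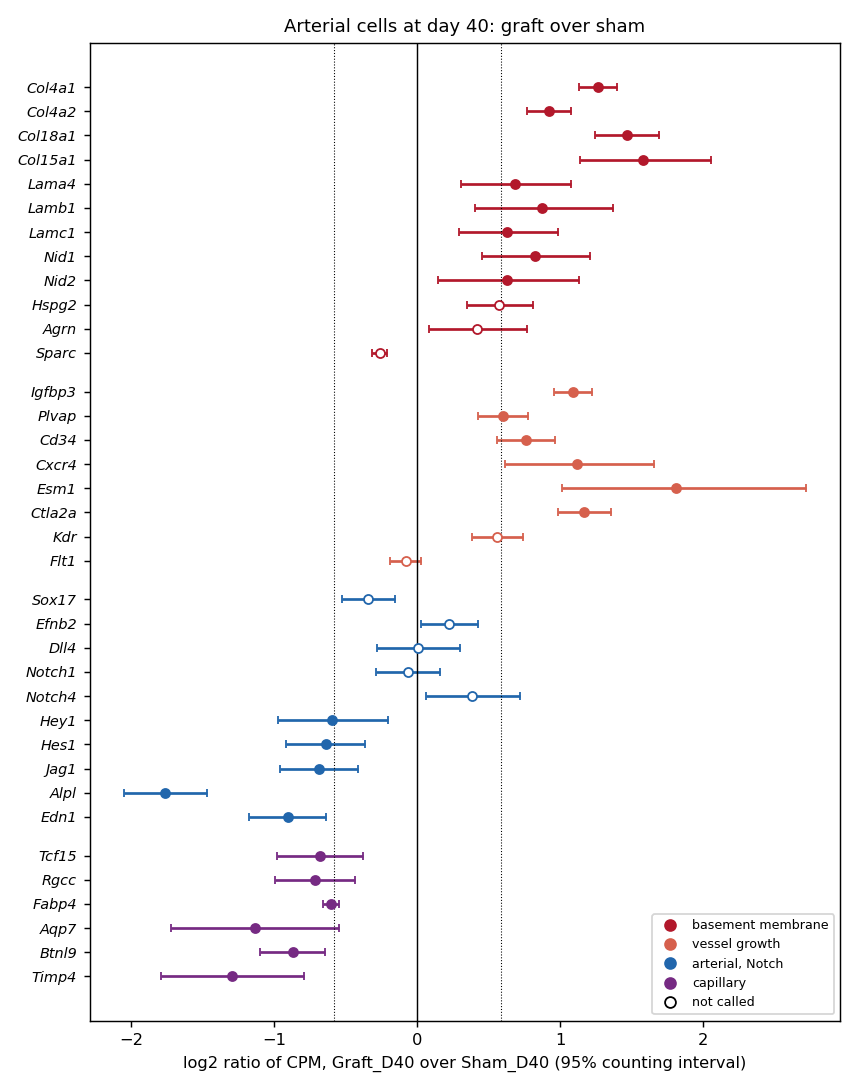
Log2 ratio of CPM in arterial cells of Graft_D40 over Sham_D40 with 95% counting intervals, filled where called and open where not, with dotted lines at 1.5-fold. Basement membrane and vessel-growth genes lie mostly right of 0, and the called genes shown in the arterial, Notch and capillary rows lie left of it (Cxcr4, also on the arterial list, is drawn with vessel growth, and Gja1 and Meox1 are not drawn).

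Capillary genes carried by arterial cells fell against Sham_D40 in 6 of 11 measured and rose in 1, with a median of -0.61, whereas against Ctrl 3 were lower and 2 higher in Graft_D40, with a median of 0.12. The sign of the median thus turned with the comparator. Fabp4, a fatty acid-binding protein, stood at 4110 CPM in Graft_D40, 6252 in Sham_D40, 1953 in Graft_D19 and 10024 in Ctrl (1.52-fold lower, 1.46 to 1.58). Cd36, a fatty acid transporter outside that list, stood at 540, 989, 151 and 1754 CPM (1.83-fold lower, 1.66 to 2.03), and Aqp7, a glycerol channel, at 32.1, 70.6, 9.19 and 117 CPM (2.20-fold lower, 1.46 to 3.30). In Fabp4, Cd36 and Aqp7 the grafted libraries were below the ungrafted ones. Of 18 measured genes of a lipid and sterol list, Fabp4 and Cd36 were the only ones called against Sham_D40, and its median was -0.05. Tcf15, Rgcc, Btnl9 and Timp4 were the other fallers and Meox1, a homeobox transcription factor, the riser. Btnl9 was 1.83-fold lower than in Sham_D40 (1.56 to 2.14) and 2.87-fold higher than in Ctrl (1.55 to 6.04), and Rgcc was 1.65-fold lower than in Sham_D40 (1.36 to 1.99) and was not called against Ctrl (1.58-fold higher, 0.908 to 3.0).

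Against Ctrl, 6.42% of 6600 genes were higher and 7.62% lower in Graft_D40. Genes called the same way against both ungrafted libraries, and still called without the 5% of cells with most of their UMIs, numbered 47 higher and 29 lower, out of 73 and 51. Ranked by the smaller of both ratios, the first of them included Meox1, Col15a1, Dbn1, Ccnd1, Igfbp7, Olfml2a, Sat1, Col4a1, Ctla2a, Mmp14 and Phlda3 among the higher genes. The cells left out held 100% of the Ctrl UMIs of Meox1, Col15a1, Dbn1, Ccnd1 and Mmp14, and 100% of the Sham_D40 UMIs of Meox1. For these genes the recount against that library adds no support. Ccnd1, cyclin D1, stood at 145 CPM in Graft_D40, 52.6 in Sham_D40, 134 in Graft_D19 and 39.0 in Ctrl. Sat1, which acetylates polyamines for breakdown, stood at 976, 403, 666 and 281 CPM, with both grafted libraries above both ungrafted ones. Mmp14, a membrane-bound matrix metalloproteinase, stood at 86.1, 39.1, 141 and 7.79 CPM. The lower genes began with Cd24a, Tmem100, Igf2, Cst3, Amd1, Timp4, Nebl, Gkn3, Aqp7 and Edn1. Cst3, the protease inhibitor cystatin C, stood at 2242 CPM in Graft_D40, 6694 in Sham_D40, 1893 in Graft_D19 and 5488 in Ctrl (2.99-fold lower than in Sham_D40, 2.86 to 3.12), although 56.2% of its UMIs in Sham_D40 were in 6 cells. Without the most loaded cells Cst3 stood at 1759 CPM in Graft_D40 and 2933 CPM in Sham_D40, a 1.67-fold lower level (1.57 to 1.76). Amd1, an enzyme of polyamine synthesis, stood at 61.9, 152, 28.9 and 210 CPM (2.45-fold lower, 1.85 to 3.24).

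**Figure D5:**
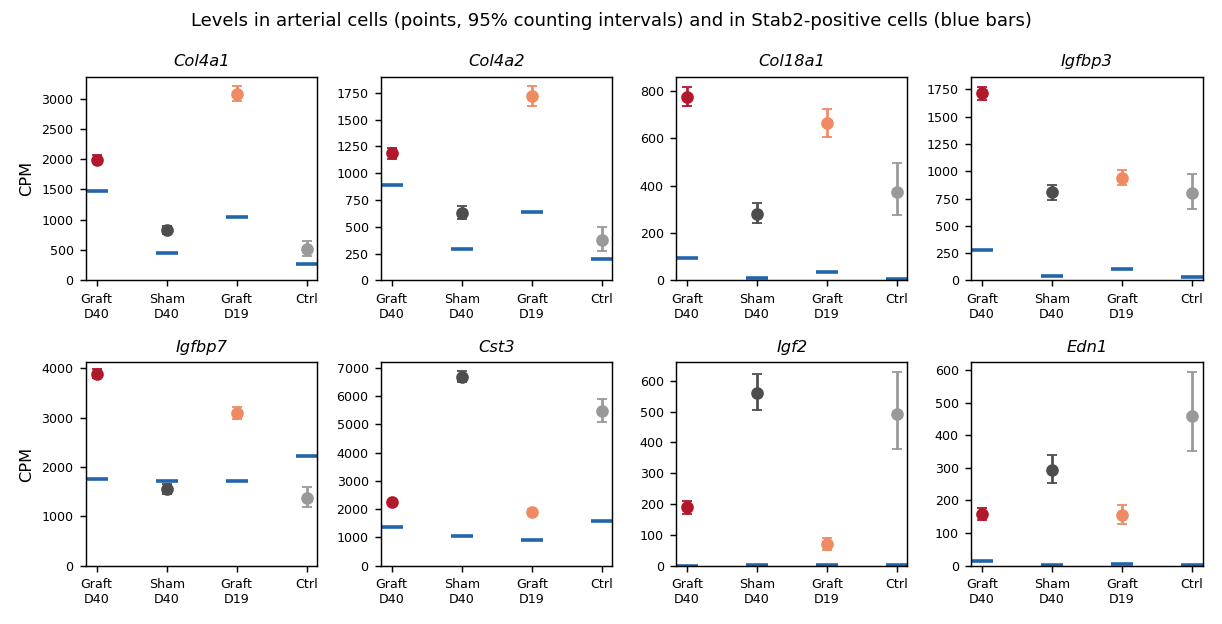
CPM in arterial cells per library (points with 95% Poisson intervals) and in Stab2-positive cells (blue bars) for 8 genes. Col4a1, Col4a2, Col18a1 and Igfbp7 are higher in both grafted libraries than in both ungrafted ones, Cst3, Igf2 and Edn1 lower, and Igfbp3 is highest in Graft_D40 at 1714 CPM.

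The day 40 ratios of Igf2, Cst3 and Igfbp3 lay further from 1 in cells with Gja5 or Bmx than in cells with neither. Igf2 in those cells stood at 256 CPM in Graft_D40 and 890 CPM in Sham_D40, a ratio of 0.287 (0.245 to 0.336), and in cells with neither gene at 67.0 and 60.8 CPM, a ratio of 1.10 (0.607 to 2.10). Cst3 had ratios of 0.245 (0.233 to 0.257) with Gja5 or Bmx and 0.873 (0.793 to 0.962) with neither. With the 5% of cells with most Cst3 UMIs left out of each subset, these ratios were 0.506 (0.473 to 0.542) and 0.932 (0.835 to 1.04). Jag1 had ratios of 0.454 (0.369 to 0.560) with Gja5 or Bmx and 2.58 (1.43 to 5.06) with neither. Its interval lay below 1 in the first subset and above 1 in the second. Not all arterial and Notch genes shared this split. Efnb2 had ratios of 1.55 (1.297 to 1.87) and 0.687 (0.551 to 0.8599) in that order, the reverse of Jag1. Dll4 was at 1.09 (0.874 to 1.37) and 0.534 (0.331 to 0.8703). Hey1 was below 1 in both subsets, 0.699 (0.519 to 0.9502) and 0.456 (0.249 to 0.842). The Notch4 interval lay above 1 with Gja5 or Bmx and spanned 1 with neither. The Sox17 and Edn1 intervals lay below 1 with Gja5 or Bmx only. Igfbp3 was higher with Gja5 or Bmx, 2.34 (2.11 to 2.61), and at 1.14 (0.935 to 1.39) with neither. The difference between the subsets was not tested.

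Some of the largest ratios at day 40 rested on few cells, Mki67, Cenpf, Top2a, Rgs5, Tpm2, Prnd, Col3a1 and Myh11 among them. Cell cycle genes rose in 8 of 14 measured and fell in 0, and 0 of the 8 were still called without the most loaded cells. All of Mki67, Top2a and Cenpf were detected together in 6 of 208 arterial cells of Graft_D40, 1 of 106 in Sham_D40, 1 of 77 in Graft_D19 and 0 of 58 in Ctrl, beside 10 of 517, 7 of 813, 19 of 999 and 1 of 1031 Stab2-positive cells. The Clopper-Pearson interval of 0 of 58 in Ctrl reaches 6.16%, which limits cells with UMIs of all of them and not dividing cells. Pericyte and smooth muscle markers rose in 6 of 7 measured, and 0 of the 6 were still called without the most loaded cells. Among the 6, Kcnj8 and Abcc9 stood lower in arterial than in Stab2-positive cells in all 4 libraries. Rgs5, a pericyte gene, stood at 419 CPM in Graft_D40, 67.6 in Sham_D40, 90.6 in Graft_D19 and 70.2 in Ctrl, with 96.8% of its Graft_D40 UMIs in 11 cells. Acta2, Tagln, Tpm2 and Myh11 had 91.3% to 100% of their Graft_D40 UMIs in 11 cells. Of 13 measured genes of a contractile and mesenchymal list 7 rose and 1 fell, and Vim and Zeb2 were the risers still called. Vim, the intermediate filament vimentin, stood at 6715, 4173, 6084 and 2136 CPM (1.61-fold, 1.54 to 1.68).

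Immediate early and stress genes fell in 11 of 25 measured with 1 higher, and a median of -0.51. Of the 11, 6 were still called without the most loaded cells, Fos among them, the riser Nr4a1 was not, and the median was -0.27. Fos, part of the AP-1 transcription factor, stood at 307 CPM in Graft_D40, 688 in Sham_D40, 988 in Graft_D19 and 850 in Ctrl (2.24-fold lower, 1.98 to 2.55). In Stab2-positive cells 17 of 26 fell and 1 rose. Interferon-response genes rose in 5 of 36 and fell in 2, with a median of 0.27, and 4 and 1 of them were still called without the most loaded cells. Rsad2, an antiviral protein, stood at 260, 134, 435 and 109 CPM (1.94-fold, 1.54 to 2.46), while Cxcl10 was detected in neither Sham_D40 nor Ctrl and stood at 13.5 CPM in Graft_D40 and 64.4 CPM in Graft_D19. Antigen presentation genes rose in 2 of 18, leukocyte adhesion genes in 1 of 15 and respiratory chain genes in 1 of 30, shares to be read beside the 4.63% of all genes. Icam1 and Vcam1, adhesion receptors for leukocytes, were not called, at 42.8 and 97.4 CPM in Graft_D40 and 25.6 and 119 CPM in Sham_D40. Nor were Klf2 and Nos3, genes of laminar shear, at 909 and 172 CPM in Graft_D40 and 1288 and 170 CPM in Sham_D40, or Kitl (1.47-fold lower, 1.31 to 1.65), Fbln2, Vwf, Ly6a and Aplnr.

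RNA of other cell types moved between these libraries. Summed over 15 chondrocyte markers it was 400 CPM in Graft_D40, 3012 in Sham_D40, 4251 in Graft_D19 and 39.0 in Ctrl, with Matn1 at 0 in all and 11 of 12 measured markers lower in Graft_D40 than in Sham_D40. Without the most loaded cells 0 of the 11 were still called, and the list median turned from -2.40 to 1.16. Over 9 erythroid markers the sum was 11.8, 1703, 15.8 and 93.5 CPM, with 4 of 4 measured lower, 0 of them still called without those cells, and 5 of the 9 at 0 in Graft_D40. Over 12 pericyte and smooth muscle markers it was 1422, 427, 787 and 725 CPM, and over 12 LepR stromal markers 2457, 3118, 2221 and 3219 CPM. Over 12 osteolineage markers it was 567, 1479, 707 and 686 CPM, with Ibsp, Alpl and Spp1 lower and Col1a1 higher in Graft_D40 than in Sham_D40 among 5 measured, and 0, 2, 2 and 5 of the 12 at 0. The most loaded cells held 94.98% of the Ibsp UMIs of Sham_D40. Myeloid markers summed to 70.2 to 146 CPM over the libraries, with Csf1r and Elane at 0. Leaving out the cells of 20 or more chondrocyte-marker UMIs per 10000 (3, 1, 2 and 0) gave 319 genes higher and 349 lower at day 40, and leaving out those of 20 or more pericyte-marker UMIs per 10000 (10, 3, 4 and 4) gave 322 and 331. The part of these RNAs in single genes was otherwise not tested.

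At day 19 the arterial cells differed from those of Ctrl in more genes than at day 40 from Sham_D40. Of 6764 genes measured, 586 were higher (8.66%) and 613 lower (9.06%) in Graft_D19 than in Ctrl, with a median log2 ratio over all genes of 0.05. Ctrl held 58 arterial cells of low depth, and depth moves with this comparison. Its part in the result was not tested. Against Sham_D40 as the other ungrafted library, 648 of 6871 genes were higher (9.43%) and 493 lower (7.18%). Graft_D19 over Ctrl and Sham_D40 over Ctrl share the Ctrl cells.

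Basement membrane genes rose in 11 of 15 and fell in 2 (Lama5 and Lamb2), with a median of 1.75, and Sham_D40 over Ctrl had 4 higher and 1 lower with a median of 0.69. Col4a1 was 5.98-fold higher in Graft_D19 than in Ctrl (4.69 to 7.76) and 3.70-fold higher than in Sham_D40 (3.37 to 4.07), whereas Sham_D40 was 1.62-fold higher than Ctrl (1.25 to 2.12). Sparc, a collagen-binding matrix protein, stood at 6567 CPM in Graft_D19 and 1185 in Ctrl, yet Graft_D40 and Sham_D40 were also high at 4835 and 5810 CPM. Among Stab2-positive cells 11 of 12 measured members were higher and 0 lower in Graft_D19 than in Ctrl, beside 18.2% higher and 7.51% lower over all genes, and 5 of 10 were higher and 0 lower in Sham_D40 than in Ctrl, beside 18.9% and 9.91%. Without the most loaded cells all 11 risers and both fallers among the basement membrane genes were still called in Graft_D19 against Ctrl. Tip-cell and angiogenic genes rose in 14 of 20 and fell in 1, with a median of 1.66, and 11 of the 14 were still called without the most loaded cells, while Apln, Esm1 and Pgf were not. Pgf, placental growth factor, was at 114 CPM in Graft_D19 and 0 in Ctrl, at least 4.89-fold higher by the limit of 3 counts in Ctrl. Kdr rose 1.74-fold (1.35 to 2.28), and Plvap 1.91-fold (1.52 to 2.42).

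Arterial identity genes fell in 18 of 36 and rose in 4, with a median of -0.67, and 16 and 3 of them were still called without the most loaded cells. Sox17 was 3.23-fold lower than in Ctrl (2.59 to 4.02) and 1.70-fold lower than in Sham_D40 (1.44 to 2.02). Clu, the chaperone clusterin, stood at 230 CPM in Graft_D19 and 1271 in Ctrl, with 599 in Graft_D40 and 780 in Sham_D40. Jag1 was 3.96-fold lower (2.77 to 5.61), while Dll4, Efnb2, Notch1 and Notch4 were not called. Genes of shear sensing and vessel tone fell in 11 of 16 and rose in 0, with a median of -0.90, among them Klf2 (805 CPM in Graft_D19, 1855 in Ctrl), Nos3, which makes nitric oxide (89.3 and 179 CPM), Ace (134 and 483) and Edn1 (155 and 460). Without the most loaded cells 7 of the 11 were still called, Klf2, Ace and Edn1 among them, and Nos3 was not. Klf2, Nos3, Ace and Edn1 were also called lower against Sham_D40. The rule genes Gja5, Stmn2, Bmx and Sema3g, which chose the cells, were themselves lower in Graft_D19 than in Ctrl, at 73.6, 226, 61.7 and 427 CPM in Graft_D19 and 421, 1434, 257 and 1021 CPM in Ctrl, and 5 of 77 arterial cells of Graft_D19 had all 5 arterial genes, against 52 of 208 in Graft_D40. A single UMI of a rule gene is a higher CPM in a shallow cell, and the median depth was 1948.5 UMIs in Ctrl and 6869 in Graft_D19. The choice thus sets a higher least level in Ctrl, and these values add no support to the fall of the list.

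Cd36 and Fabp4 stood lowest in Graft_D19. The lipid and sterol list as a whole had 7 lower and 1 higher of 19 in Graft_D19 against Ctrl, with a median of -0.50, beside 7 lower and 0 higher of 19 in Graft_D40 against Ctrl, with a median of -0.56. Against Sham_D40 its median was 0.29 in Graft_D19, with 4 lower and 1 higher. Cd36 was 11.6-fold lower than in Ctrl (9.23 to 14.7) and Fabp4 5.13-fold lower (4.76 to 5.53). Timp4, a metalloproteinase inhibitor, had 1 UMI (1.31 CPM) in Graft_D19 and 195 CPM in Ctrl (148-fold lower, 24.3 to 6091), and Cytl1, a small secreted protein, stood at 36.8 and 359 CPM. Igf2 was 7.05-fold lower (4.82 to 10.4), with 92.5% of the remaining UMIs in 4 cells. These genes were called lower in Graft_D40 against Ctrl as well, by 3.25-fold for Cd36, 2.44-fold for Fabp4, 4.74-fold for Timp4, 1.87-fold for Cytl1 and 2.60-fold for Igf2.

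Genes higher in Graft_D19 than in both ungrafted libraries numbered 225 and lower ones 177, of which 129 and 126 were still called without the 5% of cells with most of their UMIs. Ranked by the smaller of both ratios, the higher ones began with Prc1, Cxcl10, Cd276, Col3a1, Igf1 and Nts, each at 0 in Ctrl. Of these, Prc1, Cxcl10, Col3a1 and Nts had 100% of their Graft_D19 UMIs in 4 cells. Prnd, a gene of the prion protein family, headed those still called, at 301 CPM in Graft_D19, 85.0 in Graft_D40, 15.0 in Sham_D40 and 0 in Ctrl (20.0-fold higher in Graft_D19 than in Sham_D40, 10.7 to 42.3). Piezo2, a mechanosensitive channel, stood at 108, 29.3, 7.52 and 0 CPM in that order, and Kit, the receptor of stem cell factor, at 101, 28.1, 3.01 and 7.79 CPM. The most loaded cells of Sham_D40 held 100% of its UMIs of Prnd, Piezo2 and Kit, so the recount set their level there to 0 and adds no support for them. Interstitial matrix genes were higher in 18 of 37 and lower in 7, but 3 of the 18 (Col1a1, Ccn1 and Mmp14) were still called without the most loaded cells. Chondrocyte markers were higher in 12 of 12 measured, and 97.1% of the Col2a1 UMIs of Graft_D19, the main cartilage collagen, were in 4 cells. Without the most loaded cells 1 of the 12, Col2a1, was still called. Antigen presentation genes fell in 11 of 19 and rose in 0, with a median of -0.61, and 7 of the 11 were still called without the most loaded cells. H2-K1, a class I heavy chain, stood at 665 CPM in Graft_D19 and 1271 in Ctrl (1.91-fold lower, 1.59 to 2.29), and at 1221 in Graft_D40 and 1133 in Sham_D40.

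The sham femur also differed from the ungrafted one. Relative to Ctrl, arterial identity genes fell in 8 of 36 and rose in 4 in Sham_D40, with a median of -0.09, and without the most loaded cells 7 and 4 were still called, with a median of 0.05. Ly6a, Jag1, Edn1, Clu and Sox17 were called lower in Sham_D40 than in Ctrl. Fabp4 stood at 6252 CPM in Sham_D40 and 10024 in Ctrl (1.60-fold lower, 1.51 to 1.71). Respiratory chain genes fell in 9 of 30 and rose in 1 in Sham_D40 against Ctrl, and in Graft_D19 against Ctrl they fell in 7 and rose in 1, while in Graft_D40 against Sham_D40 0 fell. Of these fallers, 4 of the 9 and 5 of the 7 were still called without the most loaded cells. Ctrl was also the shallowest library, and the part of depth in this was not tested. Sham_D40 carried 2 antibody features that Ctrl lacked, so this comparison, unlike Graft_D40 against Sham_D40 and Graft_D19 against Ctrl, also crosses that difference in library content. Graft_D40 against Ctrl and Graft_D19 against Sham_D40 cross it too, so each set of genes called against both ungrafted libraries rests in part on such a comparison.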

How the data were processed

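Gene counts per cell barcode came from 4 deposited 10x Genomics 3' v3.1 matrices, 1 library per group. Per the file headers, the authors made these UMI counts with Cell Ranger 5.0.0, while the submitters' processing notes name Cell Ranger 3.1.0 and mm10. The deposited counts are raw, and 2 antibody features of Sham_D40 and Graft_D40 were kept out of totals. Barcodes with 500 genes, 1000 UMIs and at most 10% mitochondrial UMIs were kept (4920 in Graft_D40, 4570 in Sham_D40, 4902 in Graft_D19 and 4151 in Ctrl). Full libraries held 18533482 to 72204599 UMIs.

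Arterial UMIs were summed per library and scaled to 1000000 per library (CPM). CPM have exact Poisson intervals, ratios exact conditional binomial intervals, and log2 ratios a pseudocount of 1 CPM. A gene was measured at a mean of 20 CPM and called at 1.5-fold with the 95% interval off 1. No p-value was computed, as each group is 1 library. On simulated data 91% of 2-fold changes and 2.34% of unchanged genes were called for Graft_D40 over Sham_D40 (6782 genes), and 46% and 3.06% for Graft_D19 over Ctrl (6924 genes). Of 1.5-fold changes 47% and 12% were called. The simulated counts varied by counting error only, without spread between cells or animals, so these shares do not give the rate of false calls in the real data. Scrublet in scanpy 1.11.5, at an expected 6%, marked 2, 0, 1 and 0 arterial cells in Graft_D40, Sham_D40, Graft_D19 and Ctrl, and none was removed.

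Members and gene lists were chosen with earlier results of these data known. Named genes were the first 12 in each direction called alike against both ungrafted libraries at day 40, the first 6 at day 19, the first 15 arterial against Stab2-positive, the largest of each list, and fixed arterial genes. Genes named beyond these were chosen after their values were seen, and some genes that this rule takes are not reported here. Gene coordinates are from GENCODE vM21 and promoter windows from RefSeq on GRCm38.p6. Python 3.11.15, numpy 2.4.6, scipy 1.17.1, pandas 2.3.3 and matplotlib 3.10.9 were used. Alternatives changed the depth, gate, scaling, minimum level, cell weights, doublets, comparator and the cells included.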

Additional observations from a re-analysis of the deposited data

Results flagged for a closer look

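Sham_D40 and Graft_D40 hold 2 antibody features that no comparison used, and their signal split the libraries completely. In Graft_D40 the first feature had more UMIs than the second in 0% of the 208 arterial cells, with medians of 1 and 1540.5 UMIs. In Sham_D40 it had more in 100% of the 106 arterial cells, with medians of 247 and 6 UMIs. The split was the same over all kept cells, 0 of 4920 in Graft_D40 and 4570 of 4570 in Sham_D40. The labels do not say what either feature stands for.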

How the results depend on the processing

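No paired analysis was possible because each group is 1 library and its replicate number only names it. The arterial share in Graft_D40, Sham_D40, Graft_D19 and Ctrl was 12.3%, 6.67%, 2.86% and 2.76% after thinning, 9.08%, 5.78%, 2.46% and 2.53% with 3 or more arterial genes, and 10.6%, 6.59%, 4.08% and 3.04% with the stromal limit at 20 per 10000. Of arterial plus Stab2-positive cells it was 28.7%, 11.5%, 7.16% and 5.33%, and 33.0% in Graft_D40 after thinning. For Graft_D40 over Sham_D40 the 313 higher and 329 lower genes became 553 and 589 with no minimum level and 167 and 168 at 50 CPM. With equal weight per cell, called on fold alone, 489 were higher, and with Ctrl as comparator 503 were lower. Equal weight gave 1782 higher and 1491 lower for Graft_D19 over Ctrl, and 1562 and 1446 for Sham_D40 over Ctrl. Leaving out the 5% of cells with most UMIs of each gene gave 433 higher and 203 lower at day 40, 777 higher and 394 lower for Graft_D19 over Ctrl, and 540 and 236 for Sham_D40 over Ctrl. In each of these comparisons the first library held more arterial UMIs, and for a sparse gene this setting can remove all UMIs of the second. That setting, its use within the Gja5 or Bmx subsets, the marker-rich cells and the share of both classes were chosen after seeing the data.

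Some log2 values reversed. Without pericyte-rich cells, which Rgs5 and Acta2 themselves help to choose, Rgs5 at day 40 was -0.034, the cell cycle median of Graft_D19 over Ctrl -0.46, and Acta2 in Sham_D40 over Ctrl 0.63. Without the 10 deepest cells, the interstitial matrix median of Graft_D19 over Ctrl was -0.22, Ssu2 was 1.16 there and 0.98 in Sham_D40 over Ctrl, and Hspa1a 1.29 in the second. Without the 5 cells with most of its UMIs, Ssu2 was 1.49 in Graft_D19 over Ctrl and 1.95 in Sham_D40 over Ctrl, Hspa1a 3.35 and 5.82, and Acta2 3.86 in Sham_D40 over Ctrl. That setting removes a larger part of a smaller library. With 3 or more arterial genes, Ssu2 was 1.497 and 1.43 in the same comparisons, and in Sham_D40 over Ctrl Hspa1a was 0.060 and the basement membrane median -0.28. With equal weight Ssu2 was 0.066 in Sham_D40 over Ctrl. The cause was not tested beyond the cells each setting leaves out. Of 672 list medians recomputed 622 stayed on their side of 1.5-fold and 47 crossed it, while 1692 gene ratios stayed called or not called as before and 166 changed that call. The 58 shallow Ctrl cells limit every comparison with Ctrl.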

Other observations

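Genes of transforming growth factor and bone morphogenetic protein response fell in 6 of 27 measured and rose in 0 in Graft_D40 against Sham_D40, with a list median of -0.27 on the log2 scale. Of the fallers, 4 were still called without the 5% of cells with most of their UMIs (Tgfbr3, Id2, Id3 and Hey1). Id3, an inhibitor of basic helix-loop-helix factors, stood at 897 CPM in Graft_D40, 1512 in Sham_D40, 1072 in Graft_D19 and 1629 in Ctrl (1.69-fold lower in Graft_D40 than in Sham_D40, 1.56 to 1.83). In Sham_D40 against Ctrl the same list had 6 higher and 0 lower of 26, with a median of 0.46.

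Of 20 measured genes of the vascular endothelial growth factor, angiopoietin and apelin systems, 9 rose and 4 fell in Graft_D19 against Ctrl, with a median of 0.68, and 5 and 3 of them were still called without the 5% of cells with most of their UMIs. At day 40 against Sham_D40 4 of 19 rose and 1 fell. Nrp2, a co-receptor of vascular endothelial growth factors, stood at 250 CPM in Graft_D19 and 31.2 in Ctrl, beside 150 in Graft_D40 and 135 in Sham_D40. Tek, the angiopoietin receptor, stood at 184 CPM in Graft_D19 and 366 in Ctrl (1.99-fold lower, 1.40 to 2.79). Apln, the apelin ligand, stood at 48.6 CPM in Graft_D19 and 0 in Ctrl, with 97.3% of its Graft_D19 UMIs in 4 cells.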
